A study of Mus musculus with 1183 samples.

Results

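The metallothioneins Mt1 and Mt2 and 6 genes of iron handling (Fth1, Ftl1, Tfrc, Slc40a1, Slc11a1 and Slc11a2) were followed across the immune cell subtypes of the neonatal mouse lung. They are 8 of the 18072 genes in the count table and were chosen by symbol. The cells came from distal lung at postnatal day 7 of mice kept in hyperoxia, a raised oxygen level, so all groups share that exposure; cells from normal oxygen are not analysed here. Of 1183 cells, 598 came from 1 female and 585 from 1 male, and 1173 had been sorted on the leukocyte surface protein CD45. The labels give no strain and no genotype. Sex and animal cannot be told apart, and the animal is the replicate. Levels are counts per 1000000 reads (CPM) over all cells of a subtype in 1 animal, hereafter a summed library. Of the 16 labelled subtypes, 15 had 5 or more cells per animal. For the most abundant members, CPM in Mac III is also given per kilobase of transcript, the scale on which levels of different genes can be compared.

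Metallothioneins are small cysteine-rich proteins that bind zinc and copper, and their genes are switched on by the metal-sensing factor MTF-1 at metal response elements. Iron enters most cells with transferrin through the transferrin receptor encoded by Tfrc, and macrophages also take it up from engulfed red cells. Ferritin, a shell of heavy (Fth1) and light (Ftl1) chains, stores it, ferroportin (Slc40a1) is the known cellular iron exporter, and the transporters Slc11a1 and Slc11a2 move it out of phagosomes and endosomes. Iron regulatory proteins bind hairpins called iron-responsive elements in several of these messages, where they block translation from the 5′ untranslated region (UTR) or protect the message from the 3′ UTR.

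The 250 bases before the annotated starts of Mt1 and Mt2 are shown because these genes lie next to each other, with starts 6471 bases apart on chromosome 8, and had different levels. Sequences and starts are from RefSeq on GRCm38.p6, chr8:94178839-94179088 for Mt1 and chr8:94172368-94172617 for Mt2, both on the plus strand. Capitals mark matches on either strand to the metal response element core, searched as TGCACNC and TGCGCNC.
Mt1: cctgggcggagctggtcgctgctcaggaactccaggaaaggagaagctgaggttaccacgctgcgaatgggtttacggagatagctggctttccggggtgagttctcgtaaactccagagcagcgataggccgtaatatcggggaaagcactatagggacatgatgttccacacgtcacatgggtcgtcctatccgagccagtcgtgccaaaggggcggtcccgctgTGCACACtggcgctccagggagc
Mt2: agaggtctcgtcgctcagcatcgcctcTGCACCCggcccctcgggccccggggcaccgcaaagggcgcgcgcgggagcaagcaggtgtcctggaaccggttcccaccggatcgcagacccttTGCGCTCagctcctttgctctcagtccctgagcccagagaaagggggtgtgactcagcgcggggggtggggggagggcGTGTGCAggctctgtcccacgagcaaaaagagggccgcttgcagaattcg
Within these 250 bases the Mt1 window holds 1 match and the Mt2 window 3. Bases outside the window, those after the annotated start among them, were not searched for the core. The counts therefore do not give the number of elements of either gene, and their part in the levels was not tested. At least 1 match was found in 21.4% of 32851 promoter windows of this length, and at least 3 in 1.26%. Of the 6 members with a window in the table, Fth1, Ftl1 and Slc11a1 had no match and 1 of the windows of Tfrc had 2 overlapping ones. A match is a description of letters in a window set by the annotated start, not evidence of binding.

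The hairpin loops of the iron genes are shown because they place the same short pattern at opposite ends of messages for storage or export and for uptake. The pattern CNNNNNCAGTGN, a bulged C and the loop, was searched on the sense strand of the UTRs of GENCODE transcripts on GRCm38, and its fixed letters and last base are in capitals.
Fth1 5′ UTR, chr19:9982731-9982756 (plus strand): tttcctgCttcaaCAGTGCttgaacg
Ftl1 5′ UTR, chr7:45459783-45459808 (minus strand): tgtcttgCttcaaCAGTGTttgaacg
Slc40a1 5′ UTR, chr1:45925469-45925494 (minus strand): ccaacttCagctaCAGTGTtagctaa
Slc11a2 3′ UTR, chr15:100395157-100395182 (minus strand): gagccatCagagcCAGTGTgtttcta
Tfrc 3′ UTR, chr16:32631218-32631243 (plus strand): taattatCggaagCAGTGCcttccat
Tfrc 3′ UTR, chr16:32631597-32631622 (plus strand): acattatCgggagCAGTGTcttccat
Tfrc 3′ UTR, chr16:32631662-32631687 (plus strand): tctatatCggagaCAGTGAtctccat
Tfrc 3′ UTR, chr16:32631709-32631734 (plus strand): taattatCgggaaCAGTGTttcccat
Tfrc has 5 matches in all, of which 4 are shown. The Slc11a2 window is the first of 3 in 1 of its transcripts, and its second transcript has 2 others. Fth1 and Slc11a1 also have 1 match each in the 3′ UTR, and Mt1 and Mt2 have none. The pattern is short: it occurs in 7.67% of 27019 annotated 5′ UTRs and 29.6% of 28665 3′ UTRs. The counts do not separate transcripts with and without a match, and they measure message, not translation.

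Labels were checked against marker lists before the members were read. In 14 of the 15 subtypes all markers of the list reached 50 CPM in both animals. The exception was mast cell II, where 1 of 4 mast cell markers did and the list summed to 311.3 CPM (female) and 464 CPM (male), against 129581 CPM and 129036 CPM in mast cell; it is named here by its label only. Markers were also compared between subtypes: 0 of 4 markers of Mac II and 2 of 5 of Mac III were highest in their own subtype in both animals, and so were 0 of 4 of mast cell II. Read depth was 16753 to 7560179 per cell, with a median of 1100966, and 6024429 to 235566546 per summed library. Red cell markers summed to at most 6552 CPM (neutrophil of the male, median over libraries 0.244 CPM), epithelial markers to 10792 CPM (DC I of the male, median 12.9 CPM) and platelet markers to 8613 CPM (Mac IV of the male, median 0.960 CPM). Leaving out the 13 cells with at least 1000 CPM of red cell or epithelial markers changed no call on a member; 8 of them were in tested libraries. This alternative was chosen after seeing the data.

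Tests used the 8 subtypes that had 20 or more cells per animal, namely B cell, T cell, mast cell, neutrophil and Mac II to Mac V. Sums of raw counts were compared in 16 libraries with edgeR's quasi-likelihood test, Benjamini-Hochberg adjusted over 15225 genes, and a gene is called at an adjusted p under 0.05. Across the 8 subtypes 6 of the 8 members were called, where 25.1% of all tested genes were. The adjusted p was 9.36e-06 for Fth1, 2.25e-05 for Ftl1, 0.00054 for Slc11a1, 0.0018 for Slc40a1, 0.0033 for Mt1 and 0.012 for Mt2. It was 0.103 for Tfrc and 0.559 for Slc11a2, which were not called. The labels probably rest on expression in the same cells, so these calls describe how labelled classes differ. Fewer cells of a kind and less message per cell cannot be told apart within a summed library.

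**Figure D1:**
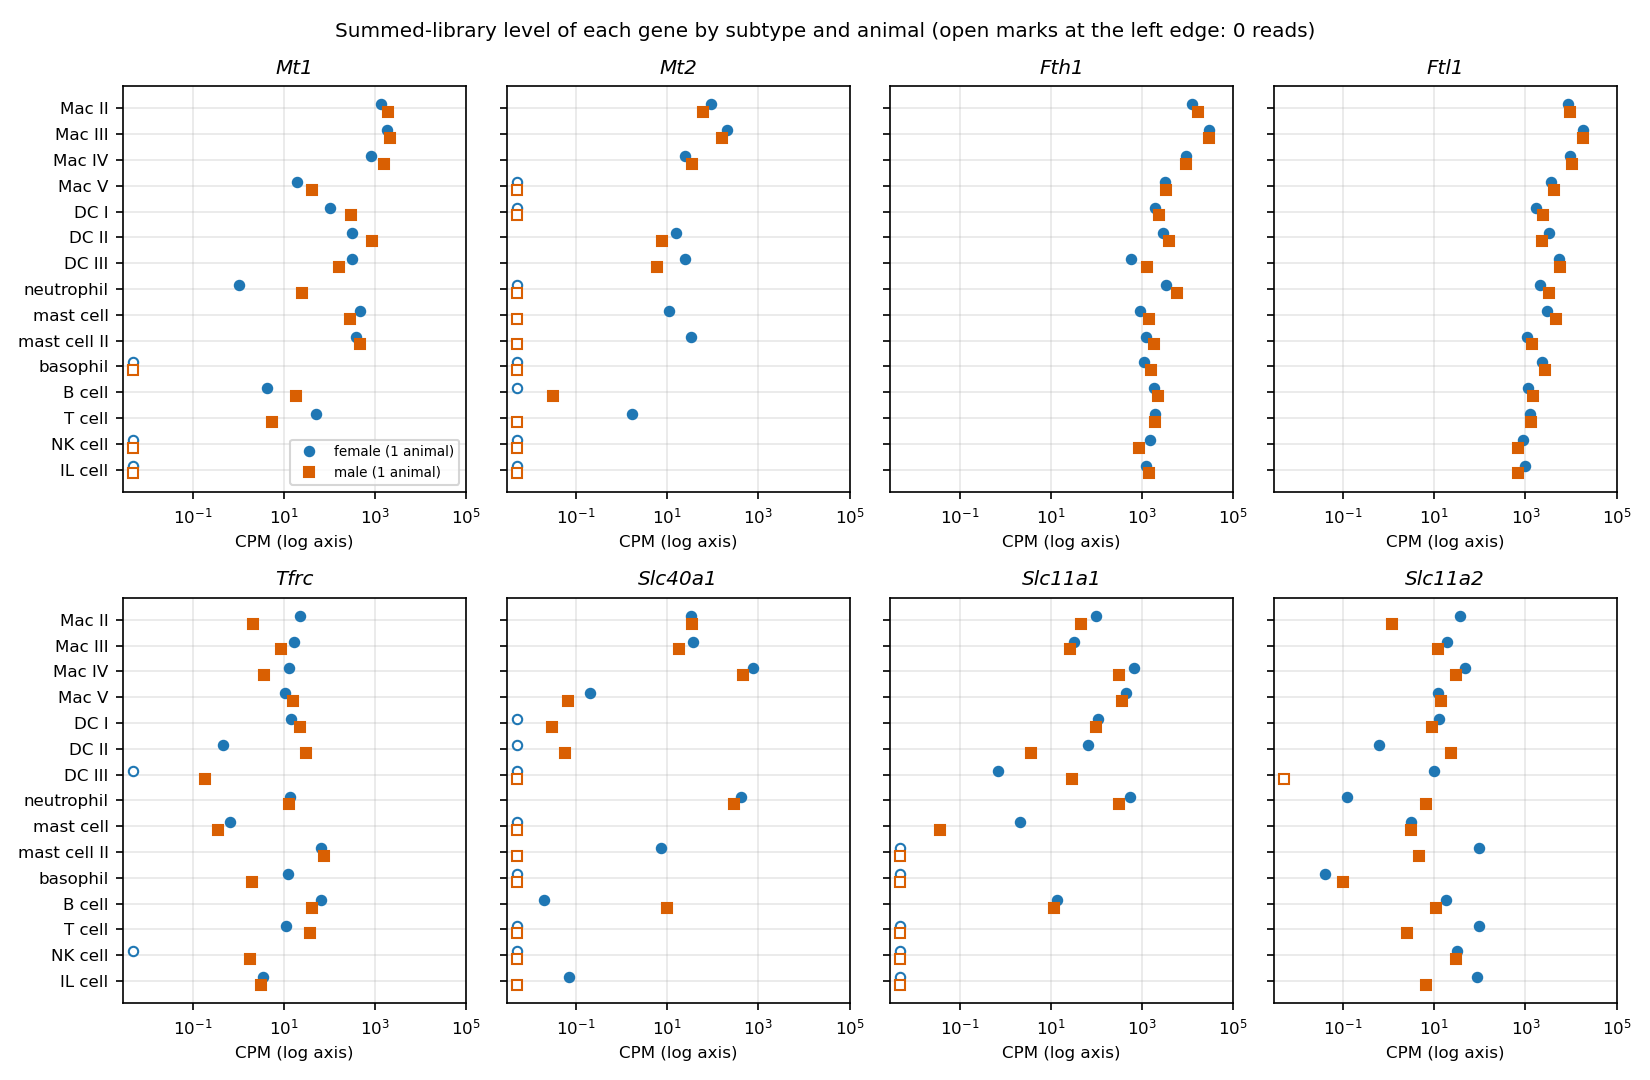
Level of each of the 8 genes (CPM, log axis) in the summed library of each of 15 subtypes, 1 point for the female and 1 for the male; open marks at the left edge are libraries with 0 reads. Mt1, Mt2, Fth1 and Ftl1 are highest in Mac III, Slc40a1 in Mac IV, and Mac IV, neutrophil and Mac V overlap for Slc11a1.

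Mt1, the more abundant metallothionein, was highest in 3 macrophage subtypes and low in Mac V, granulocytes and lymphocytes. Mac III held 1862 CPM (female) and 2106 CPM (male). Mac II held 1366 and 1908 CPM and Mac IV 821 and 1568 CPM, in the same order of animals, which is kept below. Mac II overlapped each of the other 2, while Mac III lay above Mac IV in both animals. A middle group followed, with 314.8 and 848 CPM in DC II, 377.6 and 461 CPM in mast cell II, 479 and 278.4 CPM in mast cell, 312.5 and 163.4 CPM in DC III and 105.2 and 304.1 CPM in DC I. In mast cell II of the male 1 cell held 98.2% of the Mt1 reads, and without it the level was 9.86 CPM, an alternative chosen after seeing the data. DC I, the lowest of this group, did not overlap Mac V, which had 19.5 and 41.4 CPM. T cell had 50.2 and 5.62 CPM, neutrophil 1.02 and 24.8 CPM and B cell 4.34 and 18.6 CPM. No Mt1 read was found in basophil, NK cell or IL cell. Against a floor of 3 counts over each group, their levels were at least 45673-fold, 9419-fold and 15057-fold lower than the Mac III mean. This floor counts reads, which came from 53, 12 and 14 cells, and not cells. A few cells can carry a level: the 24.8 CPM in neutrophil of the male came from 3 of 78 cells. The folds therefore describe the cells sampled and set no limit for cells that were not.

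Mt2 had a narrower range. It stood at 200.1 and 157.7 CPM in Mac III, above every other subtype in both animals. Mac II followed with 90.5 and 61.2 CPM, also clear of the 13 below it, and Mac IV had 24.4 and 35.2 CPM. DC III (24.5 and 5.94 CPM), DC II (15.4 and 7.68 CPM) and mast cell II (33.8 and 0 CPM) overlapped Mac IV or each other. No Mt2 read was found in either animal in 6 subtypes: Mac V, DC I, neutrophil, basophil, NK cell and IL cell. In Mac V this puts the level at least 7735-fold below Mac III, and in neutrophil at least 5646-fold below. Per kilobase Mac III held 3392 and 3836 CPM of Mt1 and 392 and 308.6 CPM of Mt2, so Mt1 was the more abundant message there in both animals. Genes of the response to cell handling and stress, which include Fos, summed to 1879 and 1366 CPM in Mac III. In Mac V they summed to 10801 and 9679 CPM, and in basophil to 19678 and 15066 CPM. Over all summed libraries the range was 1366 to 19678 CPM, with a median of 5310 CPM, so the subtypes named hold both ends of it. The part of these genes in the metallothionein levels was not tested. The single Mac I cell, left out of all comparisons, held 1298 CPM of Mt1, 2612 CPM of Fth1, 5557 CPM of Ftl1 and 19.3 CPM of Slc11a2, with no read of the other 4.

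Nearly every Mac III cell carried Mt1. After each cell was thinned to 100000 reads, which left out 5 shallower cells, a Mt1 read was found in 100% of female Mac III cells (97.98% to 100%, exact 95% interval) and 99.04% of male ones (96.6% to 99.9%). Mt2 was found in 35.4% (28.4% to 42.8%) and 39.4% (32.7% to 46.4%) of the same cells. In mast cell, Mt1 was found in 74.4% of 39 and 65% of 20 cells, and in neutrophil in 1.82% of 55 and 2.56% of 78. Intervals cover counting error only, since no molecular identifiers are named and reads may be copies of 1 molecule.

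The message was unevenly spread among Mac III cells. The cell median of Mt1 was 632 CPM for the female, between quartiles of 319.9 and 1546 CPM, and 964 CPM for the male, between 484 and 1935 CPM. The 10% of Mac III cells with the most Mt1 held 65.4% and 50.9% of the subtype's Mt1 reads, and the corresponding 10% for Mt2 held 90.2% and 79.5%. For Fth1 that share was 31.5% and 25.6%. Cells with Mt2 also held more Mt1. Unthinned, the 72 Mac III cells of the female with a Mt2 read had a median of 1826 CPM of Mt1, against 381.9 CPM in those without, and the 86 of the male had 2025 CPM against 566 CPM. Their median depths were 1166458 and 971176 reads in the female and 1161763 and 1134470 in the male. The correlation of log2(CPM + 1) of Mt1 and Mt2 over Mac III cells was 0.77 in the female and 0.62 in the male. It was 0.67 and 0.51 in Mac II and 0.39 and 0.33 in Mac IV. These are descriptions of cells that share animals and plates, and carry no test. Mt1 and Fth1 were nearly unrelated in the same Mac III cells (0.09 and 0.01), while Fth1 and Ftl1 gave 0.78 and 0.80.

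**Figure D2:**
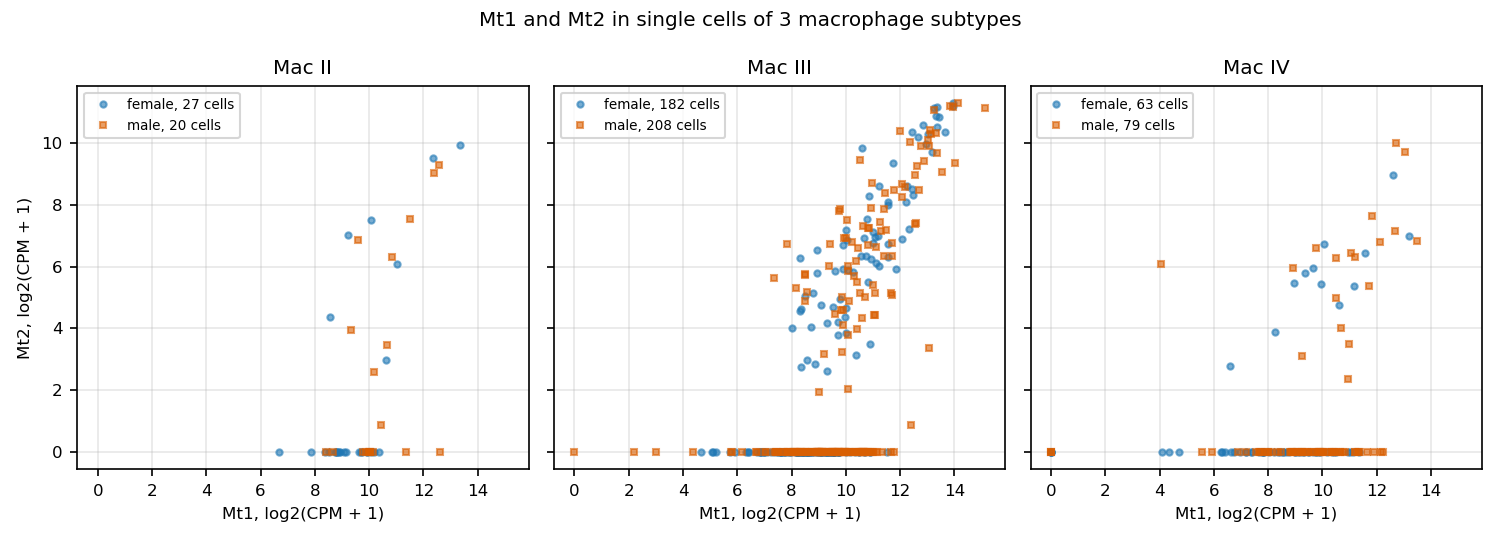
Mt1 against Mt2 in single cells of Mac II, Mac III and Mac IV, both as log2(CPM + 1), each point 1 cell and colours marking the animal. Cells with 0 Mt2 lie along the bottom over a wide span of Mt1, and cells with Mt2 lie towards high Mt1, with correlations of 0.77 and 0.62 in Mac III.

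Ferritin was the most abundant part of the set. Fth1, the heavy chain with ferroxidase activity, stood at 30021 and 29010 CPM in Mac III, 12493 and 16797 CPM in Mac II and 9298 and 9160 CPM in Mac IV. These 3 subtypes did not overlap one another or the next in order. Neutrophil had 3347 and 5917 CPM, DC II 2972 and 3914 CPM and Mac V 3189 and 3437 CPM, and these overlap. The other 9 subtypes lay between 575 CPM (DC III of the female) and 2397 CPM (DC I of the male). Fth1 was thus read in every summed library, with Mac III the highest in both animals.

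Ftl1, the light chain that favours iron core formation, stood at 17881 and 18487 CPM in Mac III, 9342 and 10485 CPM in Mac IV and 8649 and 9333 CPM in Mac II. DC III came next with 5349 and 5769 CPM, and it did not overlap Mac V, which had 3567 and 4254 CPM. Mast cell had 3035 and 4624 CPM, above its own Fth1 of 923 and 1428 CPM. DC III was therefore among the 4 highest subtypes for Ftl1 and had the lowest mean of Fth1. The lowest Ftl1 levels were 895 and 700 CPM in NK cell and 992 and 702 CPM in IL cell. Fth1 and Ftl1 together made up 4.79% and 4.75% of all Mac III reads in the table, and 0.237% and 0.156% of NK cell reads. Per kilobase Mac III held 32316 and 31227 CPM of Fth1 and 18472 and 19098 CPM of Ftl1.

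The balance of the chains differed between subtypes. The ratio of Fth1 to Ftl1 reads was 1.68 and 1.57 in Mac III and 1.63 and 1.83 in neutrophil. It was 0.995 and 0.874 in Mac IV and 0.894 and 0.808 in Mac V. Basophil had 0.502 and 0.602, mast cell 0.304 and 0.309, and DC III 0.107 and 0.225. The ratio was over 1 in both animals in 8 subtypes and under 1 in both in 5. Per kilobase of transcript, a scale added after seeing the data, these counts were 9 and 4. In reads, Fth1 outnumbered Ftl1 reads in 90.7% and 87.98% of Mac III cells, in 22 of 63 and 19 of 79 Mac IV cells, in 1 of 39 and 1 of 20 mast cells, and in 0 of 11 and 0 of 11 DC III cells.

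**Figure D3:**
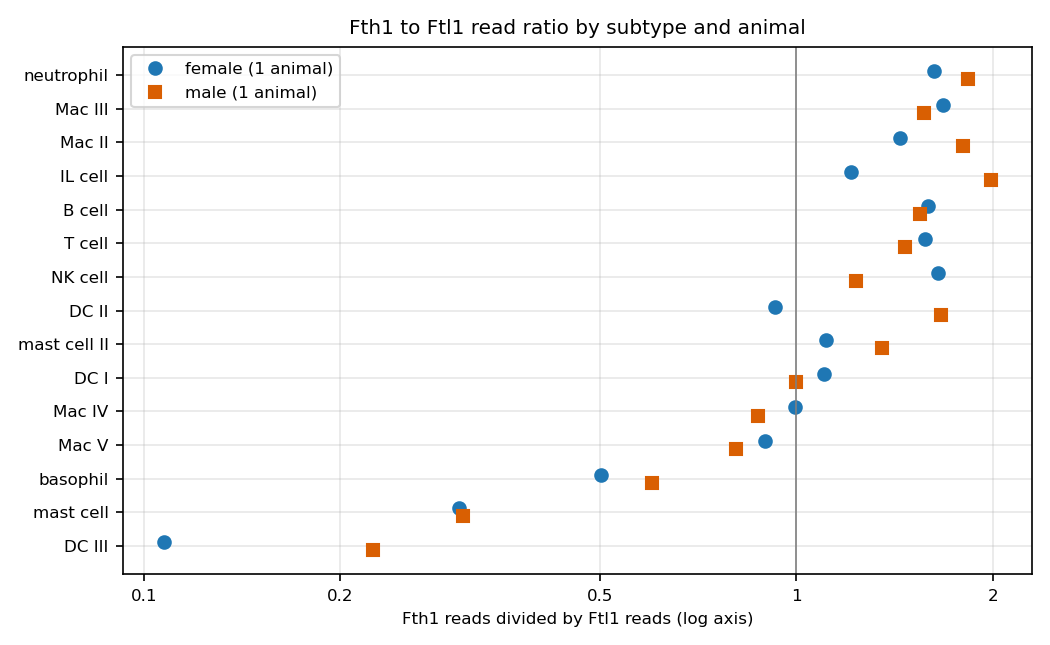
Fth1 reads divided by Ftl1 reads in each summed library (log axis), 1 point per animal for each of 15 subtypes. Both animals lie near 0.3 in mast cell and at 0.107 and 0.225 in DC III, and above 1 in Mac III and neutrophil.

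The level at which the ratio crosses 1 is uncertain, because reads of ferritin genes may be split with near-identical pseudogene copies. The Ftl1 pseudogenes in the table held 43.5% to 56% of the level of Ftl1 in every library, and Ftl1-ps1 followed Ftl1 with a correlation of 0.999 over the 15 subtypes. With the reads of 5 ferritin pseudogenes added to their genes, an alternative chosen after seeing the data, the ratio was over 1 in both animals in 3 subtypes and under 1 in both in 7. The order of the 15 subtypes by mean ratio was the same.

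Tfrc, the uptake receptor, was a low message with another order. It stood at 67.1 and 77.6 CPM in mast cell II and 66.9 and 42.4 CPM in B cell, and neither overlapped the subtype after it, though 67.1 and 66.9 CPM are nearly equal. In mast cell II of the male 1 of 8 cells held 71.6% of the Tfrc reads, and without that cell the level was 25.5 CPM, an alternative chosen after seeing the data. T cell had 11.02 and 37.4 CPM and DC I 14.6 and 23.3 CPM. Mac III, the highest for both ferritin chains, held 16.9 and 8.58 CPM, and Mac V 10.7 and 16.03 CPM. The lowest were mast cell, with 0.647 and 0.363 CPM, and DC III, with 0 and 0.192 CPM. At 100000 reads per cell, Tfrc was found in 38.5% of 39 (23.4% to 55.4%) and 28% of 25 (12.1% to 49.4%) B cells, and in 2.56% of 39 and 5% of 20 mast cells.

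Slc40a1, the exporter ferroportin, was concentrated in Mac IV and neutrophil. Mac IV held 757 and 450 CPM and neutrophil 417 and 286.7 CPM, and neither overlapped the subtype after it. Mac II had 32.4 and 35.05 CPM and Mac III 36.8 and 17.8 CPM. In Mac V there were 17 reads in the female and 3 in the male, or 0.203 and 0.0652 CPM. The 9.71 CPM in B cell of the male came from 1 cell, and no read was found in DC III, mast cell, basophil, T cell or NK cell. Against a floor of 3 counts over the group, mast cell was at least 17976-fold and T cell at least 12281-fold lower than the Mac IV mean. This floor counts reads, which came from 59 and 46 cells, and not cells. The read was widespread in Mac IV, in 79.4% of 63 (67.3% to 88.5%) and 87.3% of 79 (77.95% to 93.8%) thinned cells, and in neutrophil in 70.9% of 55 and 62.8% of 78. The largest red cell and platelet marker sums noted above were in the same 2 subtypes of the male. Red cell precursors also express Slc40a1. Without the cells with red cell or epithelial markers the level was 757 and 454 CPM in Mac IV and 391.2 and 286.1 CPM in neutrophil. Cells with platelet markers were not left out, and their part was not tested.

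Slc11a1, a phagosomal transporter of divalent metals known for its part in resistance to intracellular microbes, had 3 high subtypes. Mac IV held 661 and 315.2 CPM, neutrophil 550 and 310.6 CPM and Mac V 438 and 368.997 CPM, and these overlap. DC I followed with 107.98 and 98.6 CPM and Mac II with 96.4 and 47.2 CPM. Mac III had 32.6 and 27.1 CPM. No Slc11a1 read was found in mast cell II, basophil, T cell, NK cell or IL cell. The order of the top 3 was not stable: with TMM scaling, or with cells of the sequencing run that both animals share, neutrophil came first, and by the mean over cells Mac V did. Slc11a1 was found in 80.95% of 63 and 83.5% of 79 thinned Mac IV cells, 81.8% of 66 and 86.4% of 44 Mac V cells, and 56.4% of 55 and 42.3% of 78 neutrophils.

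Slc11a2, which carries ferrous iron out of endosomes, differed widely between the animals in several subtypes. T cell had 95.2 and 2.46 CPM, mast cell II 93.8 and 4.54 CPM and IL cell 87.5 and 6.41 CPM. Mac IV (47.9 and 30.1 CPM) and NK cell (31.5 and 30.2 CPM) were closer between animals. Its lowest level was 0.0405 and 0.102 CPM in basophil. Mac IV lay above Mac III (18.99 and 11.8 CPM) and Mac V (11.9 and 13.9 CPM) in both animals. A single NK cell held 100% of the NK cell reads of the female, and another held 86.8% of those of the male.

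The subtypes high in Slc40a1 and Slc11a1 were then compared cell by cell. Among thinned Mac IV cells, 38 of 63 and 58 of 79 had reads of both, and 0 and 2 had neither. Among neutrophils, 19 of 55 and 19 of 78 had both, 20 and 30 had Slc40a1 alone, and 12 and 14 had Slc11a1 alone. Mac V had Slc11a1 alone in 53 of 66 and 37 of 44 cells and Slc40a1 alone in 0 and 0. In Mac III neither was found in 73.5% and 69.2% of cells. Most Mac IV cells thus had exporter and phagosomal transporter together. Each of the 2 genes taken by itself was also found in most Mac IV cells. The correlation of their log2(CPM + 1) over unthinned Mac IV cells was -0.19 in the female and -0.05 in the male. Most Mac V cells had the phagosomal transporter alone, while 1 cell in each animal had both and 12 and 6 had neither.

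**Figure D4:**
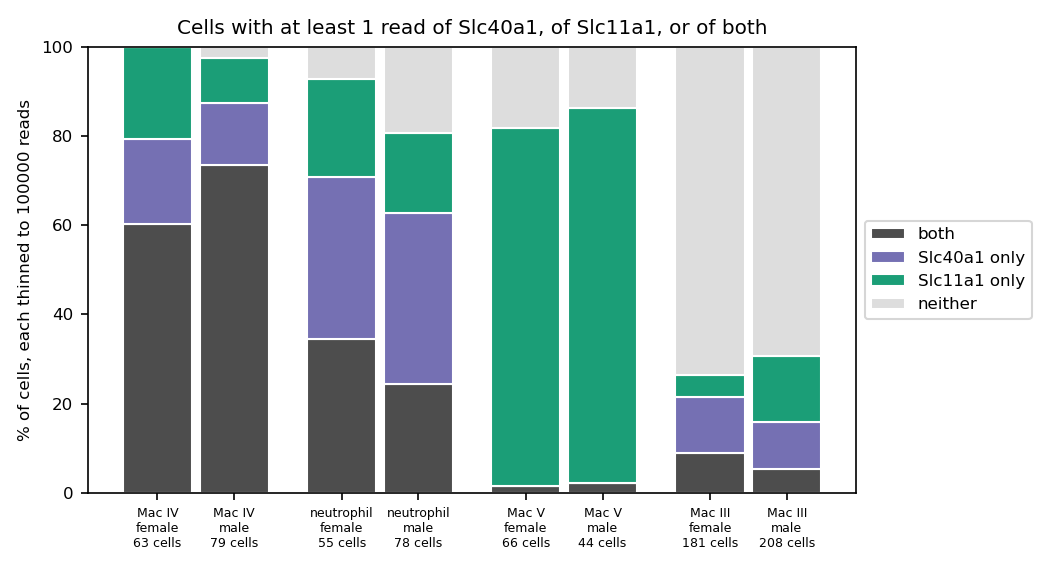
Share of cells (per cent, cells thinned to 100000 reads) with at least 1 read of both Slc40a1 and Slc11a1, of either alone, or of neither, 1 bar per subtype and animal. Cells with both make up 38 of 63 and 58 of 79 in Mac IV, and cells with Slc11a1 alone 53 of 66 and 37 of 44 in Mac V.

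Among macrophages, Mac III and Mac IV were compared first, a contrast of 2 abundant labelled classes. Fth1 alone was called, higher in Mac III by 3.20-fold between the means (log2 fold change 1.72 ± 0.29 SE, edgeR's quasi-likelihood test, adjusted p = 0.0133). That is 1 of 8 members, where 1.1% of all tested genes were called. Ftl1 was 1.83-fold higher in the means (log2 0.91 ± 0.27, adjusted p = 0.172) and became a call with the animal as a block. Slc40a1 (log2 -4.42 ± 1.60, adjusted p = 0.289) and Slc11a1 (log2 -3.98 ± 1.09, adjusted p = 0.145) had lower values in Mac III in both animals but were not called. Mt1 (log2 0.76 ± 1.14), Mt2 (log2 2.61 ± 2.02), Tfrc (log2 0.68 ± 1.15) and Slc11a2 (log2 -1.30 ± 1.73) were not called either, with adjusted p of 0.944 for Tfrc and 0.914 for Slc11a2. The Fth1 call was lost when any 1 of the 4 libraries was left out, with adjusted p from 0.0734 to 0.108 in edgeR's test, where the lone library is taken to vary like the others.

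Mac III against Mac V gave larger differences. Both ferritin chains were called, Fth1 at 8.91-fold (log2 3.10 ± 0.31, adjusted p = 0.000339) and Ftl1 at 4.65-fold (log2 2.16 ± 0.28, adjusted p = 0.00219) in edgeR's test. These are 2 of 8 members, where 1.98% of tested genes were called, and both calls held when any 1 of the 4 libraries was left out. Mt1 was 65.2-fold higher in the means (adjusted p = 0.0530), Mt2 had no Mac V read (adjusted p = 0.0588), and Slc40a1 was 203.5-fold higher (log2 7.53 ± 1.88, adjusted p = 0.0810). Slc11a1 stood 13.5-fold lower in Mac III than in Mac V (log2 -3.82 ± 1.09, adjusted p = 0.113). These missed the threshold, as did Tfrc (log2 -0.13 ± 1.14, adjusted p = 0.995) and Slc11a2 (log2 0.19 ± 1.70, adjusted p = 0.996). With limma voom the Ftl1 call was lost.

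Mac IV and Mac V differed in the exporter and in ferritin heavy chain. Slc40a1 was higher in Mac IV, at 4498-fold between means that rest on 20 Mac V reads (log2 11.95 ± 2.21, adjusted p = 0.0376 in edgeR's test), and Fth1 at 2.79-fold (log2 1.38 ± 0.29, adjusted p = 0.0443). These are 2 of 8 members, where 1% of tested genes were called. Slc11a1 differed by log2 0.16 ± 0.97 (adjusted p = 0.9751), and the direction was not the same in the 2 animals. Ftl1 was 2.53-fold higher in the means (adjusted p = 0.0558). Mt1 (log2 5.21 ± 1.36, adjusted p = 0.101), Mt2 (no Mac V read, adjusted p = 0.114), Tfrc (log2 -0.81 ± 1.15, adjusted p = 0.806) and Slc11a2 (log2 1.49 ± 1.74, adjusted p = 0.753) were not called. Both calls were lost when any 1 of the 4 libraries was left out, with adjusted p of 0.1501 to 0.245 for Fth1 and 0.127 to 0.283 for Slc40a1. The Fth1 call was also lost with the compared subtypes only (0.0516), equal weight of cells (0.0912) or the shared run (0.0519). With the animal as a block, Ftl1 was called and Slc40a1 was not (adjusted p = 0.0596).

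Against neutrophil, Mac III was higher in metallothioneins and ferritin and lower in Slc11a1. In edgeR's test Mt1 was 153.9-fold higher (log2 6.88 ± 1.47, adjusted p = 0.0171), Mt2 had no neutrophil read (adjusted p = 0.0342), Fth1 was 6.37-fold higher (log2 2.22 ± 0.30, adjusted p = 0.00115) and Ftl1 6.88-fold higher (log2 2.32 ± 0.28, adjusted p = 0.000745). Slc11a1 was 14.4-fold lower (log2 -4.36 ± 1.11, adjusted p = 0.0413), and Slc40a1 12.9-fold lower in the means without a call (adjusted p = 0.142). Tfrc (log2 -0.56 ± 1.15, adjusted p = 0.798) and Slc11a2 (log2 1.85 ± 1.76, adjusted p = 0.544) were not called. These are 5 of 8 members, where 6.61% of tested genes were called. The ferritin calls held when any 1 of the 4 libraries was left out. Mt2 was lost without each of them (adjusted p 0.0787 to 0.1231), Mt1 without Mac III of the male (0.0547) or neutrophil of the female (0.0523), and Slc11a1 without Mac III of the female (0.238), Mac III of the male (0.254) or neutrophil of the female (0.118). With the compared subtypes only, Mt1 and Fth1 (adjusted p = 0.0509) were lost, and with limma voom Mt1 and Ftl1.

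The 4 macrophage subtypes together were compared with B cell and T cell, averaging subtypes on the log scale. Fth1 stood at 13750 and 14601 CPM as the mean of the macrophage subtypes and 1895 and 2091 CPM in lymphocytes (log2 2.66 ± 0.20, adjusted p = 1.05e-05 in edgeR's test). Ftl1 stood at 9860 and 10640 CPM against 1196 and 1386 CPM (log2 3.02 ± 0.19, adjusted p = 5.28e-06). Mt1 stood at 1017 and 1406 CPM against 27.3 and 12.1 CPM (log2 5.26 ± 0.93, adjusted p = 0.00243). Slc40a1 (adjusted p = 0.00937) and Slc11a1 (adjusted p = 0.000251) were also higher in the macrophage mean in edgeR's test. Slc40a1 stood at 206.7 and 125.7 CPM against 0.00969 and 4.86 CPM. Its macrophage mean came mostly from Mac IV, at 757 and 450 CPM. Mac V held 0.203 and 0.0652 CPM, less than the 9.71 CPM in B cell of the male. Slc11a1 stood at 307.005 and 189.6 CPM against 6.89 and 5.74 CPM. These 5 of 8 members compare with 18.5% of tested genes called, and all 5 calls held when any 1 of the 12 libraries compared was left out. With limma voom Mt1 and Ftl1 were not called and Mt2 was. Tfrc pointed the other way without a call, at 15.8 and 7.61 CPM in macrophages and 38.9 and 39.9 CPM in lymphocytes (log2 -1.43 ± 0.68, adjusted p = 0.164). Slc11a2 was not called (log2 -0.22 ± 1.04, adjusted p = 0.982). In edgeR's test Mt2 was not called and no usable estimate was obtained for it, as it had no read in several of these libraries.

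Mast cell, whose markers fit its label, was compared with the same macrophages. In edgeR's test 5 of 8 members were lower in mast cell, where 12% of tested genes were called. Folds in this paragraph are between mean CPM over the subtypes. The test and its log2 average the subtypes on the log scale, so they differ from the folds. Fth1 was 12.1-fold lower (log2 -3.00 ± 0.28, adjusted p = 3.32e-05) and Ftl1 2.68-fold (log2 -1.03 ± 0.23, adjusted p = 0.0118). Slc11a1 was 230-fold lower (log2 -6.82 ± 1.21, adjusted p = 0.00379). Tfrc was 23.1-fold lower (log2 -4.30 ± 1.23, adjusted p = 0.0405). Slc40a1 had no mast cell read and was at least 4949-fold lower by the same floor over reads (adjusted p = 0.0128 in edgeR's test). The macrophage mean of Slc40a1 came mostly from Mac IV. Mt1 was not called (log2 -0.45 ± 0.93, adjusted p = 0.863): mast cell held 479 and 278.4 CPM, between Mac IV and Mac V. Slc11a2 was not called (log2 -2.44 ± 1.61, adjusted p = 0.395). Neither was Mt2 (log2 0.28 ± 0.69, adjusted p = 0.896), whose fitted sign differs from its means, 5.42 CPM in mast cell and 71.1 CPM in macrophages; Mac V had no Mt2 read. The Fth1 and Slc11a1 calls held when any 1 of the 10 libraries was left out. Ftl1 was lost without mast cell of the female (0.0957), Slc40a1 without mast cell of the female (0.0829) or male (0.0704), and Tfrc without every library but Mac II of the male (0.0517 to 0.244). With limma voom Ftl1 and Tfrc were lost, and Tfrc also with all 15 subtypes or the compared ones only.

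Cycling and other cells of Mac III were compared next, because Tfrc is known to rise in dividing cells. Cells with 5 or more reads in each of 4 or more of 10 cell cycle genes were taken as cycling, which gave 24 and 27 Mac III cells. Slc11a1 stood at 0.958 and 2.25 CPM in cycling cells and 36.9 and 30.8 CPM in the others, 21.1-fold lower (log2 -4.44 ± 0.73, adjusted p = 0.0419 in edgeR's test over 12943 genes). This is 1 of 8 members, where 1.41% of tested genes were called. Fth1 stood at 23130 and 21111 CPM against 30963 and 30212 CPM (log2 -0.52 ± 0.12, adjusted p = 0.142) and Ftl1 at 14260 and 14738 CPM against 18377 and 19057 CPM (log2 -0.42 ± 0.13, adjusted p = 0.223). The main test does not pair these classes, though both come from the same animals. With the animal as a block, which keeps the pairing, both ferritin chains were called and Slc11a1 was not (adjusted p = 0.0507 in edgeR's test). Which members are called thus depends on the pairing. Tfrc was not called, at 9.94 and 7.84 CPM in cycling and 17.8 and 8.69 CPM in other Mac III cells (log2 -0.62 ± 0.77, adjusted p = 0.828). The share of cells with a Tfrc read went the other way, at 29.2% and 22.2% of cycling cells against 22.3% and 13.8% of the others. Mt1 (log2 -0.45 ± 0.22, adjusted p = 0.456), Mt2 (log2 -0.89 ± 0.36, adjusted p = 0.339), Slc40a1 (log2 0.56 ± 1.26, adjusted p = 0.927) and Slc11a2 (log2 0.78 ± 0.66, adjusted p = 0.698) were not called. The Slc11a1 call was also lost without the other Mac III cells of the female (0.333) or male (0.172), and with 2 cell cycle genes (0.418) or 6 (0.101) in place of 4.

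In B cell the cycling cells were too few for a test. The 12 cycling B cells of the female held 122.6 CPM of Tfrc against 24.7 CPM in the 27 others, and the 8 of the male 52.1 CPM against 35.1 CPM in 17. Fth1 stood at 1313 and 2015 CPM in cycling B cells and 2257 and 2379 CPM in others, and Ftl1 at 663 and 994 CPM against 1538 and 1777 CPM. Tfrc was on the higher side and both ferritin chains on the lower side in cycling B cells of both animals. Cycling Mac III cells had lower ferritin values in both animals and, in the unpaired main test, no call on any of the 3. The difference between the subtypes was not tested.

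**Figure D5:**
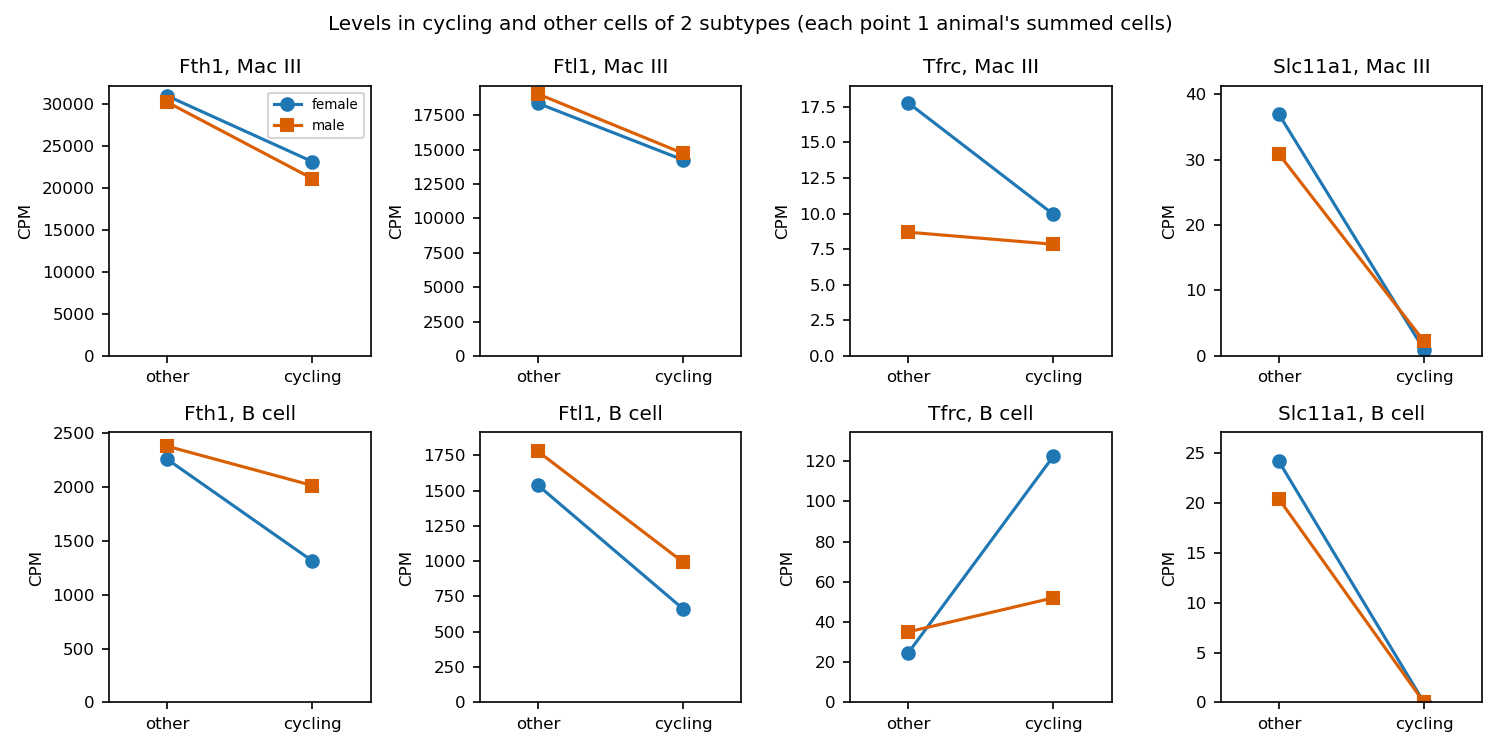
Levels (CPM) in cycling and other cells of 2 subtypes, each point the summed cells of 1 animal and lines joining the groups of the same animal. In Mac III Fth1 lies at 23130 and 21111 CPM in cycling and 30963 and 30212 CPM in other cells, and in B cell Tfrc lies at 122.6 and 52.1 CPM against 24.7 and 35.1 CPM.

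Within neutrophil and Mac IV, cells were also split by a marker. The 9 and 20 neutrophils with at least 50 CPM of Ngp, a granule protein of immature neutrophils, held 1287 and 1996 CPM of Fth1 against 4164 and 8018 CPM in the others. Slc11a1 stood at 77.9 and 178.3 CPM against 738 and 381.5 CPM, so both summed levels were lower in Ngp-high cells of both animals. The cell median of Slc11a1 was 1.54 against 141.7 CPM in the female but 0.409 against 0.918 CPM in the male. In the male a Slc11a1 read was found in 50% against 51.7% of cells. Slc40a1 did not keep a direction, at 449 and 99.7 CPM against 405 and 386.96 CPM. The 11 and 6 Mac IV cells with at least 500 CPM of the antigen-presentation gene H2-Ab1 held 296.5 and 259.6 CPM of Slc40a1 against 869 and 466 CPM in other Mac IV cells, and 675 and 348.9 CPM of Slc11a1 against 657 and 312.3 CPM. These splits were not tested.

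The other genes of iron, haem and zinc handling came from a list of 59 symbols, of which 55 were in the table and 50 were tested. Across the 8 subtypes 20 of the 50 were called, or 40%, against 25.1% of all tested genes. In macrophages against lymphocytes the median log2 difference of the 50 was 1.501, against 0.24 over all genes. There 15 were called, or 30%, against 18.5% of all tested genes, 14 higher and 1 lower. Among them Hmox1, the enzyme that degrades haem and frees its iron, stood at 1866 and 823 CPM against 28.2 and 8.45 CPM (log2 5.82 ± 1.19, adjusted p = 0.00561 in edgeR's test). Lrp1, a scavenger receptor for haemopexin-bound haem, stood at 480 and 522 CPM against 23.6 and 14.6 CPM, and Trf, transferrin, at 181.5 and 159.9 CPM against 14.7 and 4.36 CPM. Hfe, a partner of the transferrin receptors, was 32.3-fold higher between mean CPM (adjusted p = 0.0213 in edgeR's test).

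Between the macrophage subtypes few of these genes were called. In Mac III against Mac IV 0 of 50 were called by edgeR's test, 8 (16%) at an unadjusted p under 0.05, where 12.6% of all tested genes were. Hp, haptoglobin, which binds free haemoglobin, stood at 1098 and 1047 CPM in Mac V. It stood at 3.84 and 2.76 CPM in Mac III (adjusted p = 0.00869 in edgeR's test) and 27.5 and 2.28 CPM in Mac IV (adjusted p = 0.0394). In Mac III against Mac V it was the only 1 of 50 called, or 2%, where 1.98% of all tested genes were. Snx3, a sorting protein that recycles the transferrin receptor, was 3.42-fold higher in Mac IV than in Mac V (adjusted p = 0.0443 in edgeR's test). With Hp, 2 of 50 were called in that comparison, or 4%, where 1% of all tested genes were. Against neutrophil, Mac III was higher in Flvcr2, Blvra and Lrp1 and lower in Lcn2, Ltf and Hp. These are 6 of 50, or 12%, where 6.61% of all tested genes were called. Lcn2 and Ltf, the iron-binding granule proteins lipocalin 2 and lactoferrin, stood at 3794 and 5081 CPM and at 5816 and 4923 CPM in neutrophil and under 0.1 CPM in Mac III. In mast cell 3 of the list were higher than in macrophages and 4 lower, 14% of the 50 against 12% of all tested genes. The higher ones include Fech, the last enzyme of haem synthesis (4.33-fold between mean CPM, adjusted p = 0.0136 in edgeR's test). The lower ones were Lrp1, Hp, Trf and Nfe2l2. In cycling against other Mac III cells 0 of 42 were called by edgeR, 4 (9.52%) at an unadjusted p under 0.05, where 13.6% of all tested genes were.

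Plates gave a further view of the spread, since each animal had 2. Fth1 in Mac III ranged from 28195 to 31627 CPM over the 4 plates, 1.12-fold, and Ftl1 from 16989 to 18853 CPM. Mt1 in Mac III ranged from 1122 to 2665 CPM, Slc40a1 in Mac IV from 387.3 to 1106 CPM and Slc11a1 in Mac IV from 291.1 to 998 CPM. The ferritin levels of Mac III were thus the most even of these. Of the 4 plates, plate 1 of the female alone came from run DC28, and the others came from run DC35. It held the lowest of these Mt1 levels and the highest of these Slc40a1 and Slc11a1 levels. On the other plates Mac IV held at most 558 CPM of Slc40a1 and 357.1 CPM of Slc11a1. The part of the run was not tested. Over the 8 members and 4 subtypes, 32 pairs, both plates of the male lay above both of the female in 4 pairs (Fth1, Ftl1 and Slc11a2 in neutrophil, Mt1 in Mac IV), and the reverse held in 6 (Slc40a1 in Mac III, Mac V and neutrophil, Slc11a1 in neutrophil, Tfrc in Mac III and Mac IV). With 1 animal of each sex these differences have no replicate check. The share of all genes whose plates separate in this way was not computed. The counts are therefore a description and not a result on the members.

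By the correlation of log2(CPM + 1) over the 15 subtypes, among 7114 genes, the nearest patterns to each member were as follows. Fth1 was nearest to Car4 (0.92) and Atp6v0d2 (0.92), Mt1 to Sh3pxd2b (0.92), and Mt2 to Anxa4 (0.86) and Mrc1 (0.86). Ftl1 was nearest to its pseudogenes Ftl1-ps1 and Ftl2-ps (0.99), which may share reads with it. Tfrc was nearest to Fnbp4 (0.86) and Dck (0.85), Slc40a1 to Lyve1 (0.86) and Hk3 (0.83), Slc11a1 to P2ry12 (0.92) and Clec5a (0.91), and Slc11a2 to Uqcrq (0.88) and Gcsh (0.88). The points share libraries and depth, and no test is attached.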

How the data were processed

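Single-cell RNA-seq libraries had been made in plates with the Tn5 transposase, and the authors deposited raw read counts per gene and cell, whole numbers with no molecular identifiers named. The submitters' processing notes name STAR 2.5.2b, HTSeq 0.10 and the build GRCh38, a human build name for mouse data, without roles, so no coordinates of counted genes are given. Reads of antisense, overlapping or near-identical genes may be mixed in these counts. Group, animal, plate and run came from the labels, and all columns were matched. Counts were summed per animal and labelled subtype, and CPM was computed here without scaling factors. Tests used edgeR 4.0.16 (R 4.3.3) with TMM normalisation, its expression filter and 1 coefficient per subtype. Nothing says that cells of 1 animal were handled as separate preparations, so p-values measure the spread between 2 animals only. The script was tested on simulated data first. Members and lists were chosen with earlier results of these data known. All members are named in each comparison. From the list of pathway genes, at most 4 called genes per direction are named, those with the largest fold change and at least 50 CPM in the higher group, and for similar patterns the 2 best genes with a mean of at least 20 CPM. Some genes that these rules pick are not reported here. Hjv, Slc30a10, Mt4 and Ftmt were not matched. Pairing rests on subtypes coming from the same animal. Over 28 pairs of subtypes the correlation of deviations ran from -0.060 to 0.077. Alternatives were DESeq2 1.42.0, its size factors, limma 3.58.1 voom with sample weights, no filter, an animal block, the compared subtypes only, all 15 subtypes, equal weight of cells, the shared sequencing run, other cycling rules and each library left out. No doublet caller was run. Transcript lengths for CPM per kilobase ran from 511 to 4890 bases.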

Additional observations from a re-analysis of the deposited data

Results flagged for a closer look

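In 7 pairs of a member and a comparison the animals pointed in opposite directions, and with 1 animal of each sex the difference was not tested. How often this holds among all genes was not computed. Ratios of CPM are given for the female and then the male. For Tfrc they were 1.58 and 0.535 in Mac III against Mac V, 1.19 and 0.233 in Mac IV against Mac V, and 1.22 and 0.667 in Mac III against neutrophil. Slc11a2 gave 1.60 and 0.846 in Mac III against Mac V and 0.506 and 2.16 in macrophages against lymphocytes. Slc11a1 gave 1.51 and 0.854 in Mac IV against Mac V, from 661 against 438 CPM in the female and 315.2 against 368.997 CPM in the male. On plate 1 of the female, from run DC28, Mac IV stood at 998 CPM against 358.1 CPM in Mac V. On her plate 2, from the shared run DC35, it stood at 349.8 against 507.1 CPM, the direction of the summed male libraries. The plates of the male, also from DC35, differed in direction. Plate 1 had 357.1 CPM in Mac IV against 502 CPM in Mac V, and plate 2 had 291.1 against 282.5 CPM. The part of the run was not tested. Slc40a1 gave 2.46 and 0.0924 in cycling against other Mac III cells, from 77.2 against 31.4 CPM in the female and 1.86 against 20.2 CPM in the male. None of these was called by edgeR's test in the pooled animals.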

How the results depend on the processing

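Of the values of the 21 called member results under alternatives, 100% kept their direction and 83.4% were also called, while 60 were not; the cause was not tested. Counts of members called moved as follows. Mac III against Mac IV (1) gave 3 with DESeq2, 0 with all 15 subtypes, 4 with the compared subtypes only and 6 with limma voom. Mac III against Mac V (2) gave 6 with DESeq2, 6 with the compared subtypes only, 4 with equal weight of cells and 5 with voom. Mac IV against Mac V (2) gave 5 with DESeq2, 0 with all 15 subtypes, 1 in the shared run and 4 with voom. Mac III against neutrophil (5) gave 3 with all 15 subtypes and 3 in the shared run. Mast cell against macrophages (5) gave 3 with voom, and cycling Mac III (1) gave 3 with voom and 0 with 2 or 6 genes. With the animal as replicate block the counts were 2 in Mac III against Mac IV and 2 in cycling Mac III, and no other call changed except in Mac IV against Mac V, given above. Leaving out 1 library gave 0 to 0 in Mac III against Mac IV and in Mac IV against Mac V, 2 to 4 against neutrophil, 2 to 5 in mast cell and 0 to 2 in cycling Mac III. Counts over all genes ranged from 2134 to 7416 across the 8 subtypes (3816 in the main analysis), 37 to 2706 in Mac III against Mac IV (1.1% of tested genes in the main analysis), 69 to 2641 in Mac III against Mac V (1.98%) and 16 to 1955 in Mac IV against Mac V (1%), 220 to 3583 against neutrophil (1007), 1458 to 5036 against lymphocytes (2824), 1036 to 3534 in mast cell (1827), and up to 843 in cycling cells (1.41%). Higher calls against neutrophil made up 53.8% with TMM and 43.6% with DESeq2 size factors, which moved the median log2 of all genes from 0.23 to 0. That scaling moved it from 0 to -0.15 in Mac III against Mac IV, 0.07 to 0.23 in Mac IV against Mac V, 0.24 to 0.10 against lymphocytes and -0.11 to 0.02 in mast cell. The Slc40a1 level in Mac V rests on 20 reads. Across the 8 subtypes voom lost Ftl1.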
